A study of Homo sapiens with 4 samples.

Results

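The control libraries of the study came from Ishikawa cells, an established line of human endometrial adenocarcinoma that the labels call an endometrial epithelial cell. They were chosen by their label alone and are 2 of the 4 samples of the series. The series asked which transcripts depend on *CDYL*, which encodes a chromodomain corepressor, by setting these control cells beside cells that carry an shRNA against it. Per the methods of the study, the cells received a negative control shRNA with polybrene, and transduced cells were selected with puromycin. The shRNA plasmid carried a ZsGreen marker and a puromycin resistance gene. The controls are therefore transduced and selected cells of 1 cancer line, not untouched cells or normal endometrium. Nothing in the labels says whether control replicate 1 and control replicate 2 came from separate cultures, so the spread between them may be technical. In pairs of values, control replicate 1 comes first.

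The glands of the endometrium are lined by an epithelium of Müllerian origin. It is held together by cadherin and claudin junctions, it carries simple keratins, and it secretes proteins into the uterine lumen under the control of oestrogen and progesterone. Steroid hormones act through nuclear receptors that bind DNA, while growth factors, cytokines and Wnt ligands act through receptors at the cell surface. Ishikawa cells are often used as a model of this epithelium.

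The designed hairpin and 4 promoters show the sequences behind the cells and behind the extremes of their transcriptome. The target listed for the negative control shRNA is 21 bases long with 47.6% GC, and it matched none of 252835 annotated transcripts over its full length on either strand.
negative control shRNA target: ttctccgaacgtgtcacgtaa
The promoter windows are from RefSeq on GRCh38.p14 and span 250 bases before to 50 bases after a start listed for the gene. They read 5′ to 3′ on the gene's strand. Capitals mark CG dinucleotides, which read the same on both strands. *WFDC2* and *PAX8* are shown as an abundant secreted product and an abundant lineage factor. *PGR* and *PTPRC* are shown as genes without a count in either library.
WFDC2, chr20:45469503-45469802, plus strand: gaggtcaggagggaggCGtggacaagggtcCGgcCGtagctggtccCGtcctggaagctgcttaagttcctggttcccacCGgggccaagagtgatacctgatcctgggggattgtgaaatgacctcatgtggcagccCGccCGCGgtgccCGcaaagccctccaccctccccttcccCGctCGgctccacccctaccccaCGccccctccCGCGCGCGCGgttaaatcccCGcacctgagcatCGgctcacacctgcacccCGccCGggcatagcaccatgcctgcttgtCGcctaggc
PAX8, chr2:113278872-113279171, minus strand: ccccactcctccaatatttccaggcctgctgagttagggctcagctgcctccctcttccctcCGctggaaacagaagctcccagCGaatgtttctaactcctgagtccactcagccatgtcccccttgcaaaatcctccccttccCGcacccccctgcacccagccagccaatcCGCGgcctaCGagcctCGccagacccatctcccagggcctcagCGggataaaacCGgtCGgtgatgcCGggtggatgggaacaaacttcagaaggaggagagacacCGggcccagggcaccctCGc
PGR, chr11:101129028-101129327, minus strand, the first of 3 windows: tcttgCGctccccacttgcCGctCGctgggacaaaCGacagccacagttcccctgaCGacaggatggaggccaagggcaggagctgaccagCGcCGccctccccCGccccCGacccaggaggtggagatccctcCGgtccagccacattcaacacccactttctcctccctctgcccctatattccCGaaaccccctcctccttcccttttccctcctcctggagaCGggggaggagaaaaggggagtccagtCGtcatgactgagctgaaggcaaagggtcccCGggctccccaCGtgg
PTPRC, chr1:198638790-198639089, plus strand: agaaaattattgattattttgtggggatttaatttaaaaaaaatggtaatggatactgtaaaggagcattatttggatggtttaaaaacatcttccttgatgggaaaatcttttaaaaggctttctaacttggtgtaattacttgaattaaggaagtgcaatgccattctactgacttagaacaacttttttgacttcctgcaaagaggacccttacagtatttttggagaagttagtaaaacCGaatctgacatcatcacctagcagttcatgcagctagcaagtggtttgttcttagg
The windows hold 22 CG dinucleotides for *WFDC2*, 13 for *PAX8*, 15 for *PGR* and 1 for *PTPRC*. The median was 22 over the 15276 protein-coding genes with a window, 82.0% of those looked for. *PGR* has 3 windows, and the window shown need not lie at the upstream end of the gene. Its number is therefore not set against those of the other genes. The median was 26 for genes at 1 to 10 FPKM, 28 at 10 to 100, 27 at 100 to 1000 and 24.5 at 1000 and over. Under 1 FPKM fewer than 80% of the genes had a window (77.6% under 0.1 FPKM and 77.4% from 0.1 to 1), so a comparison of expressed with silent genes was void.

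The control libraries held 27688447 and 26981051 expected counts, the authors' estimates of read numbers per gene. Levels of different genes are compared in FPKM, which is counts per length of transcript and depth as deposited, and where stated in CPM per length of merged exons. Counts are given to show the depth behind a value. A count was seen for 22007 and 21666 of the 58522 listed genes, and 34647 had no count in either library. A gene at no count may still have up to 3 counts, or 0.108 and 0.111 CPM, which are counts scaled by library size. This limit covers counting error only.

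Control Ishikawa cells expressed 13171 genes, at 1 FPKM or more in both libraries. The single-library numbers were 13861 and 13706, and 1225 genes reached 1 FPKM in 1 library only. Of 19683 protein-coding genes, 11470 (58.3%) were expressed, with a median of 14.0 FPKM. Of 14197 long noncoding RNA (lncRNA) genes, 940 (6.62%) were. By mean level, 6768 genes lay between 1 and 10 FPKM, 5562 between 10 and 100, 1340 between 100 and 1000, and 144 at 1000 or more. Levels under 100 FPKM were thus the rule, while a small group of genes held a large share of the signal. The 144 genes of the highest class took 43.6% and 44.8% of all FPKM and 21.8% and 22.8% of all counts. The 10 most abundant genes took 9.92% ± 0.136 (SD, n = 2) of FPKM, and the 100 most abundant took 38.6% ± 0.775 (SD, n = 2). Of the expressed genes, 12500 (94.9%) fell in the same class in both libraries.

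The most abundant named protein-coding genes belonged to translation, the respiratory chain, glycolysis and the cytoskeleton. Among the 15 highest, 6 encode ribosomal proteins (*RPL41*, *RPS2*, *RPS27*, *RPL35*, *RPLP0* and *RPS18*) and 5 lie on the mitochondrial genome (*MT-ATP8*, *MT-CO2*, *MT-ND4L*, *MT-CO1* and *MT-CO3*). The others were *GAPDH*, *TMSB10*, *FTH1* and *ACTB*. *RPL41*, a protein of the large ribosomal subunit, stood at 12609.5 and 14975 FPKM. *GAPDH*, the glycolytic dehydrogenase, was listed at 9047 and 10241 FPKM with 238101 and 261176 counts. *TMSB10*, which binds actin monomers, reached 5088 and 5862 FPKM, and *FTH1*, the heavy chain of ferritin, 5006 and 5747 FPKM. For these 4 genes replicate 2 was the higher library. *ACTB*, the cytoplasmic actin, had 4951 and 5137 FPKM. The subunits of cytochrome oxidase encoded in mitochondria were lower in replicate 2, with 7448 and 7118 FPKM for *MT-CO1*. *MT-ATP8* headed the order at 20442 and 19899.5 FPKM, but it had 2644 and 2534 counts, which gives an implied length of 4.67 bases against 207 annotated bases. Its FPKM thus rests on the length used. The same holds for *MT-ND4L*, with an implied length of 31.8 bases in replicate 1 against 297 annotated bases. For *RPS27* it was 64.8 against 1028 bases, and for *RPL41* 167 against 1108. As a family, 84 of 88 cytosolic ribosomal protein genes were expressed, and they took 23.0% and 25.03% of FPKM and 8.48% and 9.66% of counts. The mitochondrial genome took 8.04% and 7.43% of FPKM and 3.40% and 3.24% of counts.

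**Figure D1:**
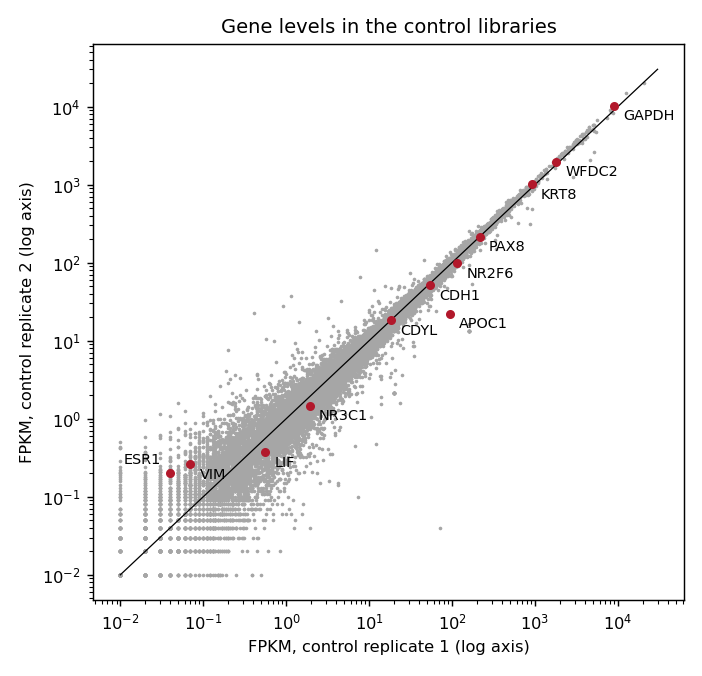
FPKM of each gene above 0 in both libraries, control replicate 1 on the horizontal and control replicate 2 on the vertical log axis, with the line of equal values and some named genes in red. Most genes lie close to the line, *APOC1* lies below it, and *ESR1* and *VIM* sit among the scattered genes under 1 FPKM.

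The labelled cell type was checked against markers of endometrial epithelium and of other cells of the tissue. Of 14 epithelial markers, 11 were expressed, with a summed level of 2800.5 and 3049 FPKM. The markers that were not expressed were *ESR1*, *PGR* and *FOXA2*, the oestrogen receptor, the progesterone receptor and a factor of gland development. All 3 endothelial markers were under 1 FPKM, with a sum of 0.6 and 0.83 FPKM, and so were all 4 leukocyte markers, with a sum of 0.82 and 0.87 FPKM. *PTPRC*, the pan-leukocyte phosphatase CD45, and *DCN*, the stromal proteoglycan decorin, had no count in either library. *PECAM1*, an adhesion molecule of endothelium, was at 0.25 and 0.3 FPKM, and *MYH11*, the smooth muscle myosin, at 0.16 and 0.15 FPKM. The label of an epithelial cell thus held for keratins, junctions and the lineage factors *PAX8* and *SOX17*. The gland factor *FOXA2* was under 1 FPKM, and the steroid hormone receptors *ESR1* and *PGR* were near or at 0. Of the ciliated cell markers 4 of 5 were expressed, beside 58.3% of protein-coding genes. Their sum was 37.0 and 50.2 FPKM, mostly from *CAPS* with 32.4 and 44.9 FPKM. *FOXJ1*, the master factor of motile cilia, was at 1.98 and 2.29 FPKM. In the longer list of ciliated cell genes given below, 6 of 16 were expressed. Stroma had 2 of 6 (5.87 and 5.77 FPKM in sum) and smooth muscle 2 of 3 (5.02 and 4.71 FPKM in sum). Whether a few other cells or a low level in all cells gave these values cannot be told apart in bulk RNA.

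**Figure D2:**
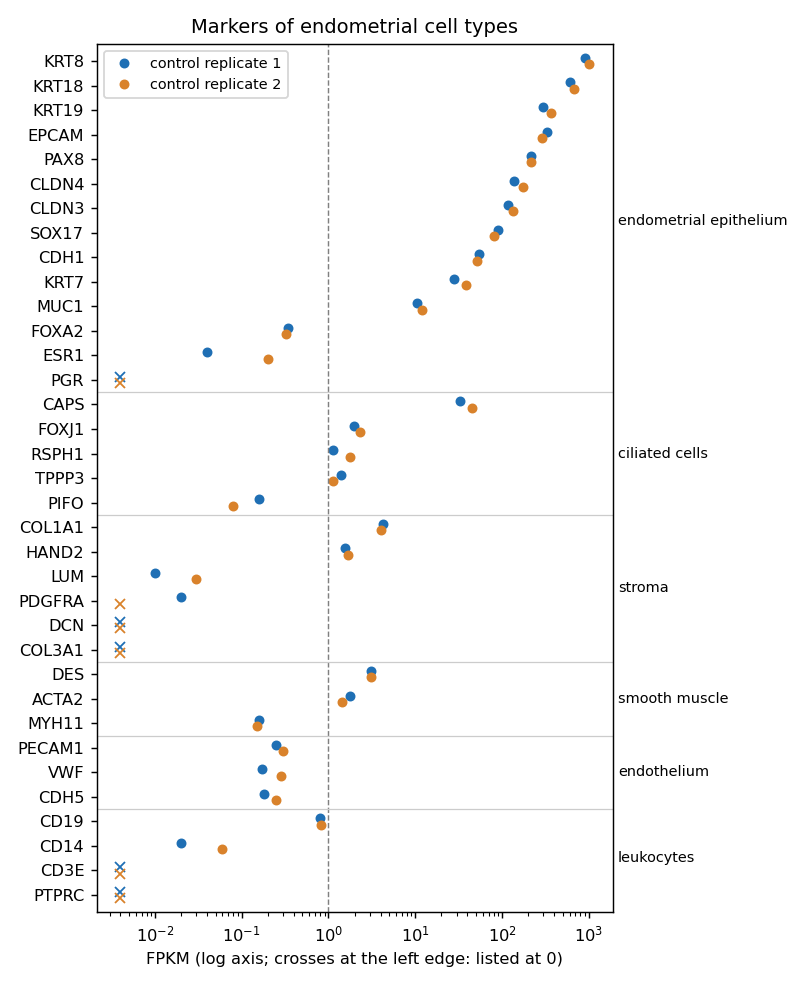
FPKM (log axis) of the markers of each endometrial cell type in control replicate 1 (blue) and replicate 2 (orange), with crosses for genes listed at 0 and a dashed line at 1 FPKM. Epithelial markers from *KRT8* down to *MUC1* lie right of the line, while *ESR1*, *PGR*, *FOXA2* and all endothelial and leukocyte markers lie left of it.

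*PAX8* and *MSX1* were the most abundant transcription factors of the Müllerian lineage. Of 30 lineage factors, 21 (70%) were expressed, beside 58.3% of all protein-coding genes, 10 passed 10 FPKM in both libraries, and 4 had no count. The median of the 30 was 4.02 FPKM. *PAX8* (ENSG00000125618), the paired-box factor that marks Müllerian epithelium and its tumours, stood at 217 and 213 FPKM with 13298 and 12899.8 counts. *MSX1*, a homeobox factor of the uterine epithelium, was at 216 and 201 FPKM, and *SOX17*, an endoderm and gland factor, at 89.3 and 80.6 FPKM. The ranges of *PAX8* and *MSX1* overlapped and both lay above *SOX17*, and per length of merged exons *MSX1* came first. *SOX9*, a factor of glandular progenitors, measured 32.2 and 32.3 FPKM. *HOXA10*, which patterns the uterus, measured 29 and 26.2 FPKM, and *EMX2*, which is needed to form the reproductive tract, 24 and 22.7 FPKM. *HOXA11*, the neighbour of *HOXA10* in its cluster, was lower, at 7.01 and 5.99 FPKM. *FOXA2* had 20 and 18 counts and stood at 0.34 and 0.32 FPKM. Of the 20 pairs of neighbours in the order of this list, 9 overlapped between libraries.

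Epithelial transcription factors were expressed in 15 of 24 cases (62.5%), near the 58.3% of protein-coding genes, and factors of the mesenchymal transition in 3 of 13 (23.1%). *ELF3*, an epithelial ETS factor, led the first list with 39.9 and 45.7 FPKM, while per length of merged exons *ESRP2* came first. The splicing regulators of epithelia *ESRP2* and *ESRP1* were at 22.6 and 22.1 FPKM and 12.6 and 11.9 FPKM. *KLF5*, a Krüppel-like factor, had 17.9 and 16.4 FPKM and *OVOL2*, a repressor of mesenchymal genes, 12.9 and 15 FPKM. On the mesenchymal side *TWIST1* was expressed at 11 and 14.1 FPKM, *SNAI1* at 5.01 and 5.72 FPKM and *TWIST2* at 1.57 and 2.06 FPKM. Each of these 3 mesenchymal factors was below *ELF3* in both libraries. Their transcripts and those of the junctions were measured in the same bulk RNA, and whether single cells held both was not measured. None of 13 pluripotency and germ line factors was expressed, and the highest of them, *POU5F1*, was at 0.62 and 0.28 FPKM.

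The oestrogen and progesterone receptors were under 1 FPKM, while *NR2F6* and *ESRRA* led the nuclear receptors. Of 48 in all, 24 (50%) were expressed, beside 58.3% of protein-coding genes, and 7 had no count in either library. *ESR1* (ENSG00000091831), the oestrogen receptor alpha, had 6 and 6 counts, or 0.04 and 0.2 FPKM. *ESR2*, the oestrogen receptor beta, had 22 and 11 counts, or 0.41 and 0.19 FPKM. *PGR* (ENSG00000082175), for which 1 of 3 promoter windows is given above, had no count in either library. These 3 receptors were thus under 1 FPKM in each library. The mineralocorticoid receptor *NR3C2* was at 0.15 and 0.21 FPKM. By contrast *NR3C1*, the glucocorticoid receptor, passed 1 FPKM in both libraries, with 1.93 and 1.47 FPKM and 294 and 204 counts.

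At the top of the family, *NR2F6*, an orphan receptor of the COUP type, had 116 and 98.3 FPKM. *ESRRA*, the oestrogen-related receptor alpha, which binds no oestrogen and drives genes of energy metabolism, had 58.1 and 63.6 FPKM. *NR1H2*, the liver X receptor beta, followed with 48.6 and 52.1 FPKM. *RARG*, a retinoic acid receptor, measured 42.1 and 43.6 FPKM, and *THRA*, a thyroid hormone receptor, 39.3 and 37.2 FPKM. None of these 5 ranges overlapped the next, but over the whole list 8 of 23 pairs of neighbours did. With counts per length of merged exons, *NR2F6* stayed first and *VDR* took the place of *NR1H2* among the 5 highest. Of the 30 receptors with enough counts to compare, none differed by more than 2-fold in CPM between the libraries.

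**Figure D3:**
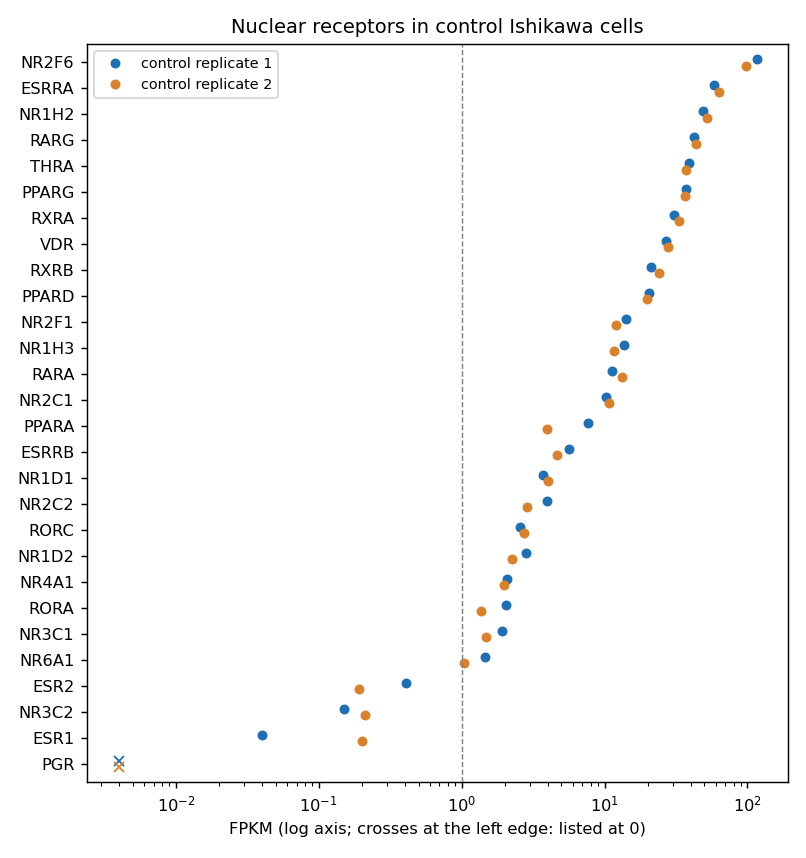
FPKM (log axis) of the 24 expressed nuclear receptors and of *ESR1*, *ESR2*, *PGR* and *NR3C2*, control replicate 1 in blue and replicate 2 in orange, crosses for values listed at 0. *NR2F6* leads with 116 and 98.3 FPKM, *NR3C1* lies just right of the dashed line at 1 FPKM, and the latter 4 lie left of it.

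Most of the listed coregulators and chaperones that can act with steroid receptors had transcripts, while a response to steroids was not measured. Of 28 coregulators and chaperones, 26 (92.9%) were expressed, beside 58.3% of protein-coding genes. The chaperone genes *HSPA8* and *HSP90AB1* stood at 984 and 887 FPKM and 677 and 578 FPKM. *PTGES3*, the p23 cochaperone of receptor complexes, had 457 and 409.9 FPKM, and the prohibitins *PHB2*, known to repress the oestrogen receptor, and *PHB1* had 652 and 698 FPKM and 299 and 334 FPKM. Of 33 enzymes of steroid metabolism, 20 (60.6%) were expressed, near that share. *HSD17B4*, a dehydrogenase that oxidizes oestradiol, had 72.3 and 49.7 FPKM but 2119 and 1951 counts, so the gap between libraries was wider in FPKM than in counts. *AKR1C3*, which makes active androgens and oestrogens, had 49 and 51.1 FPKM, and the 5-alpha-reductase family genes *SRD5A3* and *SRD5A1* had 29.5 and 28.5 FPKM and 20.6 and 24.8 FPKM. With counts per length of merged exons, *HSD17B4*, *SRD5A3* and *SRD5A1* left the 5 highest of this list.

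Genes that respond to oestrogen in other cells were expressed in 11 of 20 cases (55%), near the 58.3% of protein-coding genes. *CCND1*, cyclin D1, had 127 and 127 FPKM and was the closest match between libraries among the top members. *CA12*, a membrane carbonic anhydrase, was at 102 and 89.8 FPKM, and *XBP1*, a factor of the secretory pathway, at 91.9 and 89.8 FPKM. *ADORA1*, an adenosine receptor, stood at 18.2 and 21.1 FPKM, *SIAH2*, a ubiquitin ligase, at 19.1 and 17.9 FPKM and *GREB1*, a receptor cofactor, at 4.79 and 5.54 FPKM. These levels were measured in cells with 6 and 6 counts of *ESR1*.

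Receptor tyrosine kinases were led by *ERBB2* and by Eph and collagen receptors. Of 58 listed, 28 (48.3%) were expressed, beside 58.3% of protein-coding genes, and 9 had no count. *ERBB2*, the HER2 receptor without a ligand of its own, had 84.4 and 86.2 FPKM and 8689 and 9125 counts. Its partner *ERBB3* was lower, at 26.2 and 27.9 FPKM, and *EGFR* lower still, at 3.3 and 2.24 FPKM. *ERBB4* was not expressed, at 0.3 and 0.3 FPKM in the libraries. The order in the ERBB family was therefore *ERBB2*, *ERBB3*, *EGFR* and *ERBB4*, with no overlap between neighbours. *EPHB3* and *EPHA2*, receptors for ephrins on neighbouring cells, had 72.5 and 74.2 FPKM and 71.4 and 69.5 FPKM, and the collagen receptor *DDR1* lay between them with 73 and 72.3 FPKM. The ranges of *EPHB3* and *DDR1* overlapped, so their order is not set by these libraries, and per length of merged exons *EPHB3* came before *ERBB2*. *PTK7*, a pseudokinase of planar polarity, was at 52.8 and 55.8 FPKM. *MET*, the receptor of hepatocyte growth factor, was at 0.46 and 1.84 FPKM, but its counts were 80 and 110, and the implied length fell from 6281 to 2216 bases between the libraries. Hence the FPKM of *MET* differed more than its counts did.

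Cytokine receptors were expressed in 31 of 45 cases (68.9%), beside 58.3% of protein-coding genes, with members of the TNF receptor superfamily on top. *TNFRSF12A*, the receptor of TWEAK, had 172 and 231 FPKM. *LTBR*, the lymphotoxin beta receptor, had 120.3 and 131 FPKM and *TNFRSF1A*, the main TNF receptor, 108 and 118 FPKM. The TRAIL receptors *TNFRSF10B* and *TNFRSF10D* were at 37.5 and 37.8 FPKM and 31.9 and 32.6 FPKM. Receptors of the LIF pathway, which serves implantation, were low. *IL6ST*, the shared signal chain gp130, was expressed at 2.89 and 2.19 FPKM with 696 and 423 counts. *LIFR*, the chain specific for LIF, had 0.44 and 0.41 FPKM, and the prolactin receptor *PRLR* 0.4 and 0.43 FPKM, both under the limit for expression. The ligand *LIF* was also under it, at 0.56 and 0.37 FPKM with 42 and 37 counts.

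Of 14 TGF-beta family receptors, 8 (57.1%) were expressed, and only *TGFBR2*, the type II receptor, passed 10 FPKM in both libraries with 13.8 and 13.6 FPKM. *ACVR1B*, an activin receptor, had 10.2 and 9.51 FPKM, and the type I receptor *TGFBR1* had 4 and 2.29 FPKM. The other members of the top 5 were *ACVR1* with 3.23 and 3.15 FPKM and *BMPR2*, which binds bone morphogenetic proteins, with 2.95 and 2.86 FPKM. Wnt and Notch receptors were expressed in 18 of 24 cases (75%), beside 58.3% of protein-coding genes. *LRP5*, the Wnt coreceptor, had 54.2 and 54.4 FPKM. The Frizzled receptors *FZD5* and *FZD7* had 27.4 and 22.8 FPKM and 22.9 and 23.9 FPKM, and *SMO*, the related transducer of Hedgehog signals, 26.2 and 26.4 FPKM. *NOTCH3* was the highest Notch receptor, at 17.9 and 19.8 FPKM. The ranges of *SMO* and *FZD5* overlapped, as did those of *FZD5* and *FZD7*.

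Of 72 G protein-coupled receptors of hormones and lipids, 24 (33.3%) were expressed, beside 58.3% of protein-coding genes, and 18 had no count in either library. The orphan receptor *GPRC5C* was by far the highest, at 164 and 195 FPKM. *LPAR2*, a receptor of lysophosphatidic acid, followed at 37.9 and 36.7 FPKM and *VIPR1*, a receptor of vasoactive intestinal peptide, at 23.3 and 17.1 FPKM. The relaxin receptor *RXFP1* was listed at 22.5 and 16.9 FPKM, but from only 57.2 and 38.5 counts at an implied length of 91.7 and 84.3 bases. With counts per length of merged exons *RXFP1* and *VIPR1* left the 5 highest, and the FPKM of *RXFP1* is no safe measure of its level.

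Of 28 keratins, 6 (21.4%) were expressed, beside 58.3% of protein-coding genes, namely *KRT8*, *KRT18*, *KRT19*, *KRT7*, *KRT10* and *KRT80* with 4.73 and 6.38 FPKM. *KRT8* and *KRT18*, the partners of the simple epithelial filament, had 911 and 1013 FPKM and 608 and 683 FPKM. *KRT19* followed with 295 and 362 FPKM, and *KRT7*, a keratin of ductal and Müllerian epithelium, with 27.9 and 38.3 FPKM. All 4 were higher in replicate 2. *KRT10*, a keratin of stratified epidermis, had 33.3 and 28 FPKM and overlapped *KRT7*. *VIM*, the mesenchymal filament vimentin, had 3 and 11 counts, or 0.07 and 0.26 FPKM.

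Of 48 genes of adhesion and polarity, 34 (70.8%) were expressed, beside 58.3% of protein-coding genes. *EPCAM*, the epithelial adhesion molecule, was highest at 330.4 and 289 FPKM. The tight junction claudins *CLDN7* and *CLDN4* had 209 and 209 FPKM and 139 and 173 FPKM. The catenins *JUP* and *CTNNA1*, which tie cadherins to the cytoskeleton, stood at 134 and 144 FPKM and 140.3 and 133 FPKM with overlapping ranges. *CDH1*, E-cadherin, stood at 54.6 and 51 FPKM with 6207 and 5913 counts. *CDH3*, P-cadherin, named after its values were seen, overlapped it with 47.3 and 52.8 FPKM. *CDH2*, N-cadherin, had 16 and 25 counts and 0.15 and 0.47 FPKM. Thus E-cadherin was above and N-cadherin below 1 FPKM in both libraries.

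Integrin chains were expressed in 12 of 24 cases (50%), beside 58.3% of protein-coding genes. *ITGB4*, the hemidesmosome chain, led with 79.5 and 104 FPKM. *ITGB5* had 62.3 and 66.1 FPKM, and the common chain *ITGB1* had 58.8 and 45.4 FPKM. The laminin receptor chain *ITGA3* was at 48.5 and 54.7 FPKM and *ITGAE*, the partner of E-cadherin binding, at 48.4 and 54.2 FPKM. The ranges of *ITGB1*, *ITGA3* and *ITGAE* overlapped. *ITGB1* and *ITGAE* left the 5 highest with counts per length of merged exons. Mucins and apical glycoproteins were expressed in 15 of 30 cases (50%). The sialomucins *PODXL* and *PODXL2* had 106 and 91.2 FPKM and 88.3 and 84.1 FPKM, next to the folate receptor *FOLR1* with 79.9 and 92.2 FPKM. The range of *FOLR1* overlapped both. *MUC1*, the mucin that covers the apical surface, was lower at 10.6 and 12.1 FPKM. The prominins *PROM2* and *PROM1*, of membrane protrusions, had 23.1 and 30.6 FPKM and 25.7 and 15.9 FPKM and differed in direction between the libraries.

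Secreted proteins included several of the most abundant transcripts. The highest was *WFDC2* (ENSG00000101443), which encodes the protease inhibitor HE4 of the female genital tract, with 1813 and 1948 FPKM and 15346 and 16162 counts. Of 87 secreted glandular and defence proteins, 36 (41.4%) were expressed, beside 58.3% of protein-coding genes, and 10 passed 100 FPKM in both libraries. *SPINT2*, an inhibitor of serine proteases, had 457 and 510.5 FPKM, and *CST3*, the cysteine protease inhibitor cystatin C, 346 and 349 FPKM. The lysosomal and secreted lipid handlers *PSAP* and *NPC2* had 330.1 and 359 FPKM and 260.0 and 287 FPKM. In this group inhibitors of proteases held the first 3 places by FPKM, and *CST3* and *PSAP* overlapped. With counts per length of merged exons, *CST3* and *NPC2* left the 5 highest. *APOC1*, an apolipoprotein named after its values were seen, had 94 and 22.3 FPKM but 240 and 187 counts, with an implied length of 92.3 and 311 bases.

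Growth factors and hormones were expressed in 57 of 122 cases (46.7%), beside 58.3% of protein-coding genes, and 20 had no count. *MDK*, the heparin-binding growth factor midkine, had 925 and 928 FPKM and differed little between libraries. The binding proteins of insulin-like growth factors *IGFBP2* and *IGFBP3* had 775 and 894 FPKM and 509 and 562 FPKM. *HDGF*, hepatoma-derived growth factor, had 427 and 444 FPKM and *STC1*, the calcium regulator stanniocalcin, 220.1 and 177 FPKM. None of these 5 ranges overlapped the next. By counts per length of merged exons *IGFBP3* came first. Of the cytokines and chemokines, 13 of 59 (22.03%) were expressed, beside the same 58.3%. *MIF*, macrophage migration inhibitory factor, stood far above the rest at 1095 and 1271 FPKM. The chemokine-like factor *CKLF* had 167 and 204 FPKM and *CXCL16*, a membrane-bound chemokine, 119.7 and 116 FPKM. *TNFSF13* and *TNFSF9*, ligands of the TNF family, were at 17.7 and 21.6 FPKM and 6.92 and 6.95 FPKM.

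Matrix proteins were expressed in 50 of 78 cases (64.1%), near the 58.3% of protein-coding genes. *TINAGL1*, a matrix protein that binds laminins, had 376 and 425 FPKM. The laminin chains *LAMA5* and *LAMB2* had 165 and 178 FPKM and 147 and 144 FPKM. *MFGE8*, lactadherin, was at 81 and 104 FPKM and the basement membrane proteoglycan agrin, *AGRN*, at 90.5 and 85.7 FPKM, with overlapping ranges. *COL1A1*, the fibrillar collagen chain of stroma, had 4.3 and 4.05 FPKM.

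**Figure D4:**
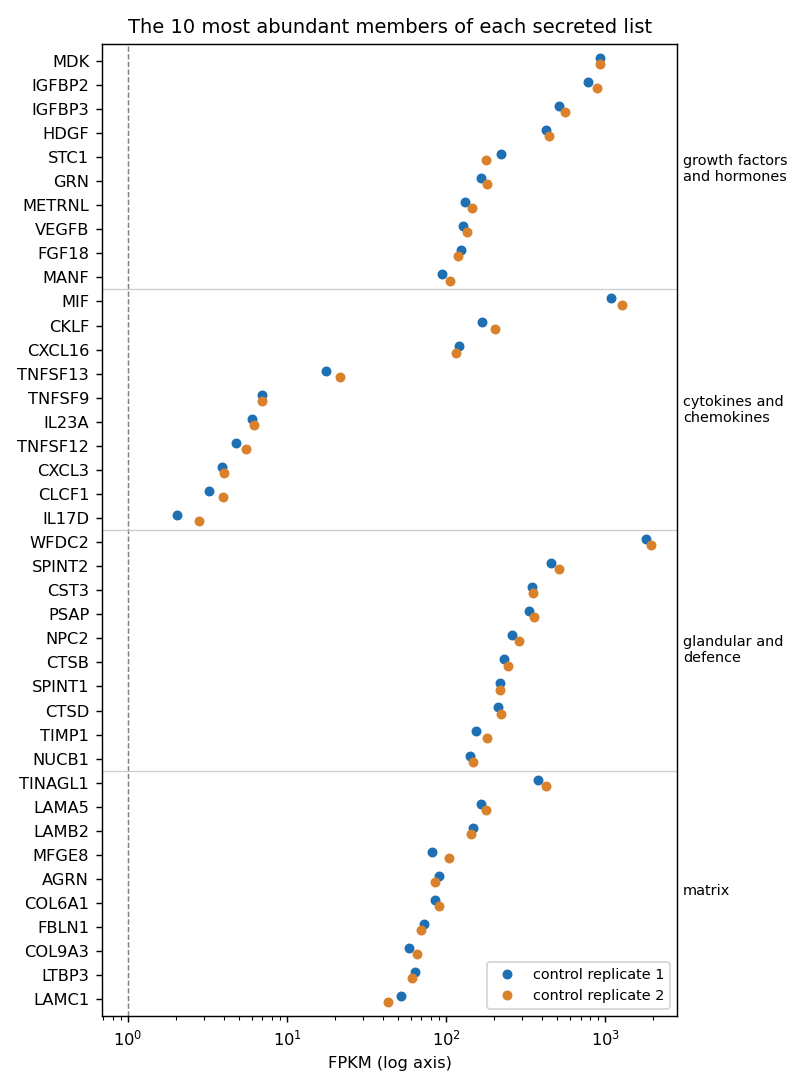
FPKM (log axis) of the 10 most abundant members of each secreted list in control replicate 1 (blue) and replicate 2 (orange), with a dashed line at 1 FPKM. *WFDC2* and *MIF* pass 1000 FPKM in both libraries, and the cytokine list drops from 119.7 and 116 FPKM for *CXCL16* to 17.7 and 21.6 FPKM for *TNFSF13*.

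Genes of the glandular secretory phase, when the endometrium becomes receptive, were expressed in 17 of 42 cases (40.5%), beside 58.3% of protein-coding genes, and 11 had no count. *ANXA2*, an annexin of the apical surface, was highest at 742 and 772 FPKM, while per length of merged exons *STC1* came first. By FPKM *STC1* and *CLDN4* came next, and *GPX3*, the extracellular glutathione peroxidase, had 95 and 104 FPKM. *MT2A*, a metallothionein, had 66.3 and 65.1 FPKM. *SPP1*, osteopontin, the ligand of integrins at implantation, was expressed at 29.5 and 24.2 FPKM with 957 and 759 counts. *PAEP*, glycodelin, the main product of secretory glands, had 25 and 28 counts, or 1.75 and 1.63 FPKM. Thus the hallmark products *PAEP* and *LIF* were near or under the limit for expression, while *SPP1* was above it. Of 23 proliferative-phase and luminal genes, 11 (47.8%) were expressed, below the same 58.3%. *CA12* and *SOX9* led this list. *EZH2*, the histone H3 methyltransferase, had 17.3 and 14.4 FPKM, and *PLAU*, the urokinase plasminogen activator, 6.03 and 7.76 FPKM.

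Some genes used as markers of other cell types were abundant, while most of the endothelial, leukocyte, stromal and neuronal genes listed were not expressed. The counts below stand beside 58.3% of all protein-coding genes. *EGFL7*, a secreted protein known from endothelium, had 327 and 381 FPKM, but 2 of 16 endothelial genes were expressed in all, the other being *TIE1*, a receptor of angiopoietin signalling, with 1.75 and 2.13 FPKM. *LCP1*, the leukocyte actin bundler L-plastin, had 96.3 and 77.6 FPKM, with 3 of 24 leukocyte genes expressed. *FBLN1*, the matrix protein fibulin, had 72.5 and 69.9 FPKM, with 4 of 24 stromal and fibroblast genes expressed. *UCHL1*, a neuronal deubiquitinase, had 97.3 and 102 FPKM, with 4 of 19 neuroendocrine and neuronal genes expressed, among them *ENO2*, neuron-specific enolase, with 26.9 and 32.1 FPKM and *CHGA*, chromogranin A, with 2.54 and 2.95 FPKM. Each of these 4 genes was above every other member of its list in both libraries. Of 14 smooth muscle and pericyte genes, 7 (50%) were expressed, near the 58.3%. They were led by *MCAM*, an adhesion molecule, with 41.1 and 40.4 FPKM and *SMTN*, smoothelin, with 32.4 and 34.8 FPKM. Per length of merged exons *NOTCH3* came first. *TAGLN*, transgelin, had 21.3 and 18.4 FPKM. Ciliated cell genes were expressed in 6 of 16 cases, with *CAPS*, a calcium-binding protein, at 32.4 and 44.9 FPKM. Trophoblast genes were expressed in 2 of 18 cases, led by *PEG10*, an imprinted gene of retroviral origin, with 17.3 and 20.4 FPKM, and hepatocyte and intestinal genes in 1 of 18, the intestinal homeobox gene *CDX2* with 6.27 and 7.01 FPKM.

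Proliferation genes were expressed almost throughout, in 37 of 39 cases (94.9%), beside 58.3% of protein-coding genes. *CDKN2A*, which encodes the cell cycle inhibitor p16, was the highest at 533 and 593 FPKM. *CDK4*, the kinase that p16 inhibits, had 352 and 380.1 FPKM. The polymerase clamp *PCNA* and *UBE2C*, a ubiquitin carrier of mitosis, had 279 and 271 FPKM and 279.8 and 263 FPKM, and *MCM7* of the replicative helicase 191 and 195 FPKM. The ranges of *PCNA* and *UBE2C* overlapped, and per length of merged exons *PCNA* came first. The retinoblastoma gene *RB1*, named after its values were seen, was one of the members under 1 FPKM, with 0.68 and 0.69 FPKM and 80 and 59 counts. Whether the gene itself is altered in these cells was not measured.

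Driver genes of endometrial carcinoma were expressed in 25 of 29 cases (86.2%), beside 58.3% of protein-coding genes. *RPL22*, a ribosomal protein gene, had 332 and 368 FPKM. *CHD4*, a chromatin remodeller, had 186 and 161 FPKM, *AKT1*, a kinase of growth signalling, 157 and 167 FPKM and *PPP2R1A*, the scaffold of a phosphatase, 149 and 150.4 FPKM. *CTNNB1*, beta-catenin of junctions and Wnt signals, had 132 and 125 FPKM. *CDYL* (ENSG00000153046), the gene that the other cells of the series target, spans 4706159 to 4955551 on chromosome 6 of GRCh38, plus strand. It stood at 18.2 and 18.2 FPKM with 1405 and 1406 counts, above the median of 14.0 FPKM for expressed protein-coding genes.

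The control libraries were close to each other, with a spread that moved with level and base composition. After scaling by TMM, 15313 genes with enough counts were compared as CPM. The common biological coefficient of variation (BCV), the relative spread beyond counting error, was 10.6%. The median ratio was 1.13-fold in either direction, and 90% of genes were within 1.42-fold, 95% within 1.59-fold and 99% within 2.10-fold. Past 2-fold, 99 genes (0.647%) were higher and 116 (0.758%) were lower in replicate 2, or 215 (1.40%) in all. For 6803 genes (44.4%) the ratio lay outside the 95% binomial interval of their counts. Of the 707 list members compared, 9 (1.27%) passed 2-fold and 332 (47.0%) lay beyond counting error. Both shares were near those of all genes, and the highest mean level among the 9 was 1.73 CPM. The BCV was 19.2% for genes under 1 FPKM, 13.7% from 1 to 10, 8.10% from 10 to 100, 8.67% from 100 to 1000 and 12.6% at 1000 and over. The spread was thus smallest in the middle classes. Of 85 cytosolic ribosomal protein genes, 82 were higher in replicate 2, beside 49.04% of all 15313 genes compared, with a median log2 ratio of 0.24.

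GC-poor genes were lower and GC-rich genes higher in replicate 2. The median log2 ratio of CPM, replicate 2 over replicate 1, was -0.26 under 40% GC, -0.17 at 40 to 45%, -0.07 at 45 to 50%, 0.02 at 50 to 55%, 0.09 at 55 to 60% and 0.12 at 60% and over. Under 40% GC, 83.6% of 1189 genes were lower in replicate 2, against 22.3% of 2463 genes at 60% and over. By length of merged exons, it was 0.07 under 1000 bases, 0.13 from 1000 to 2000 and -0.11 at 8000 and over. GC content was known for 98.2% of the genes. The part of these trends in the differences of single genes, the ribosomal protein genes included, was not tested.

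**Figure D5:**
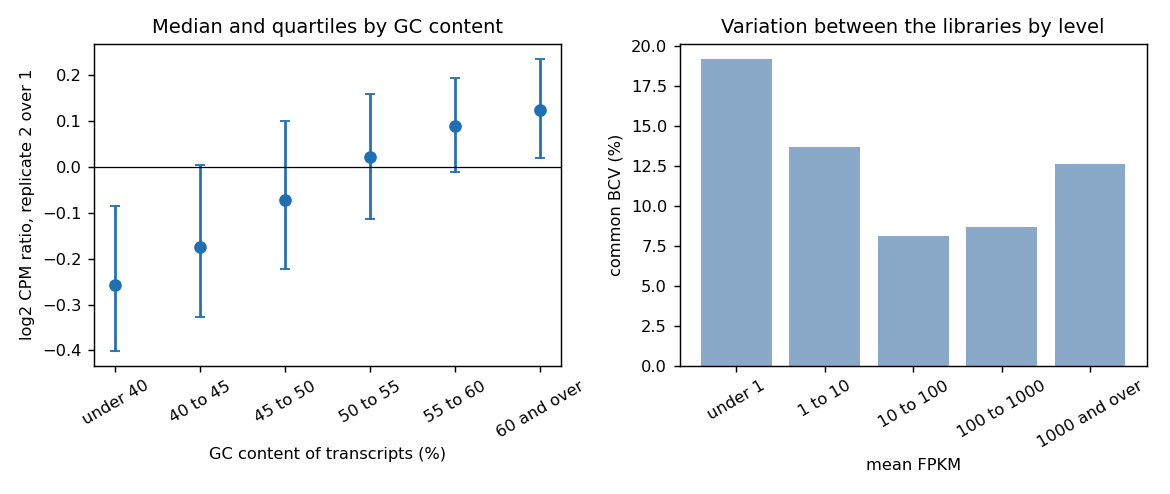
Left, median log2 ratio of CPM, replicate 2 over replicate 1, with the quartiles as bars, by GC content of the transcripts. Right, common BCV in percent by class of mean FPKM. The medians climb from -0.26 under 40% GC to 0.12 at 60% and over, and the BCV is lowest, 8.10%, at 10 to 100 FPKM.

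Among the genes with the largest ratios were several whose reads can be shared. Taking the 10780 genes that averaged 5 CPM or more, the highest ratios were seen for *MICOS10-NBL1* and *TGIF2-RAB5IF*, which are read-through genes, for the pseudogenes *MMP23A* and *ZBTB45P2*, for *RGPD5*, a member of a family of near-identical copies, and for *PRSS53*, *PLA2G4B* and *MALL*. *MICOS10-NBL1* had 82 and 191 counts and a log2 ratio of 1.28, and *PRSS53*, a serine protease gene, 102 and 210.4 counts and a log2 ratio of 1.11. Values of read-through genes, pseudogenes and near-identical copies are uncertain, since the counting had to divide reads between overlapping or like sequences. The part of such sharing in these ratios was not tested. On the other side, *ZNG1F*, one of several near-identical copies, had 347 and 51 counts and a log2 ratio of -2.64. *SMIM11*, which has a near-identical copy on chromosome 21, had 552 and 120.4 counts and a log2 ratio of -2.10. The small nuclear RNA gene *RN7SK* had 237 and 73 counts and a log2 ratio of -1.59. The other low ratios ran from -1.07 for the antisense gene *CERS6-AS1* to -0.92 for *AKAP9*, an anchor of kinase A, with *EXPH5*, *ZNF525* and the kinetochore gene *KNTC1* between them. On the low side, GC content was 37.3% for *ZNG1F*, 38.2% for *AKAP9*, 40.9% for *KNTC1* and 41.8% for *CERS6-AS1*. It was 42.4% for *ZNF525*, 42.6% for *EXPH5*, 48.5% for *SMIM11* and 58.2% for *RN7SK*. On the high side, it was 68.7% for *MMP23A*, 65.5% for *ZBTB45P2*, 61.4% for *PRSS53* and 60.7% for *PLA2G4B*. It was 55.5% for *MICOS10-NBL1*, 54.6% for *MALL*, 50.7% for *TGIF2-RAB5IF* and 41.9% for *RGPD5*, which had a log2 ratio of 0.79. The part of GC content in the ratios of these genes was not tested.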

How the data were processed

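RNA-seq libraries of Ishikawa cells with a negative control shRNA (n = 2) were analysed. Per the methods of the study, they were made with a TruSeq RNA kit and read as paired ends on a HiSeq instrument. Alignment to GRCh38.p10 by TopHat is named in the submitters' processing notes, with RSEM and edgeR as further tools. The release of the gene annotation is not given in the sources used here. The authors deposited, per gene and library, an expected count (an estimate of reads that need not be whole) and an FPKM, which the authors scaled by transcript length and depth. Columns of the *CDYL*-sh libraries were not used here.

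Of 58522 identifiers, 57392 (98.1%) were found in GENCODE release 44 on GRCh38, which gave symbols, positions, GC content and lengths of merged exons. Expected counts were rounded, filtered with filterByExpr and scaled by TMM in edgeR 4.0.16 under R 4.3.3 (prior count 2). Tables were made with pandas 2.3.3 under Python 3.11.15. The computation was tested on simulated data. A gene was called expressed at 1 FPKM in both libraries. With 1 group, no test between conditions applies, and with 2 libraries no exact test can pass 0.05. The SD between libraries and counting error are given instead.

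The members, the 34 gene lists (1119 symbols, 99.7% found) and the rule for named genes were chosen with earlier results of these data known. The symbols *CCDC39*, *FAM183A* and *CTGF* were not matched, the last an older name of the listed *CCN2*. Named genes were the 15 most abundant protein-coding genes, the 5 most abundant of each list, of lncRNA, of the mitochondrial genome and of small RNA, the 8 largest ratios in each direction at 5 CPM or more, and receptors, lineage factors and markers fixed by name. The results of some genes are not reported here. Alternatives were other FPKM thresholds, units, normalizations, filters and pseudocounts, and each library left out.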

Additional observations from a re-analysis of the deposited data

Results flagged for a closer look

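Signal was also seen in identifiers that no list or named gene uses. The 289 assembled loci without a name held 22129 and 18411 counts, 0.0799% and 0.0682% of the libraries, and 171 of them were expressed. The 841 Ensembl identifiers not found in the annotation held 350525 and 171768 counts, 1.27% and 0.637%. Most of this came from ENSG00000275757, with 189891 and 87815 counts, and ENSG00000276700, with 128177 and 54718 counts. Both were lower in replicate 2, as was the unnamed lncRNA ENSG00000278996 on chromosome 21, with 34346 and 17068 counts. No group had enough libraries to look for an outlying one.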

How the results depend on the processing

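No paired analysis was possible because only 1 group is described. The number of expressed genes was 14658 at 0.5 FPKM, 17585 at 0.1, 8845 at 5, 13178 by TPM and 15372 by 10 counts, and 13706 to 13861 in single libraries. The 10 most abundant genes took 8.24% of FPKM without the mitochondrial genome and 6.24% of counts (9.83% to 10.02% in single libraries), and the 100 most abundant took 35.7% and 21.4% (38.02% to 39.1%). The number of genes past 2-fold was 2681 without a filter on low counts, 107 or 412 on FPKM with a pseudocount of 1 or 0.1, and 61 with at least 1 FPKM in both libraries, against 215. It was 213 to 225 with other normalizations or filters, with 6752 to 6846 genes beyond counting error (7447 without a filter) and a BCV of 10.5% to 11.2% (the latter without a filter). Expressed list members were 366 at 5 FPKM, against 556, 627 at 0.5, 761 at 0.1, and 569 to 578 in single libraries. Of the 15 most abundant genes, 9 stayed with CPM per length of merged exons, and 13 to 14 in single libraries. Of 192 named genes, 174 moved by more than the SD with that length and 26 with TPM. The same gene stayed first in 23 of 34 lists, and the same 5 in 14. FPKM also rests on lengths that differ between the libraries, by over 1.5-fold for 335 of 12936 genes (2.59%). Depth limits genes under 1 FPKM most. No alternative was added after seeing the data.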

Other observations

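The most abundant named lncRNA genes were mostly hosts of small nucleolar RNAs. *SNHG5* had 822 and 831 FPKM, *SNHG29* 587 and 613 FPKM and *GAS5*, which binds the glucocorticoid receptor, 561 and 619 FPKM. *DANCR* followed with 423 and 446 FPKM and *SNHG6* with 259.9 and 310.2 FPKM. *SNHG5* had 3377 and 3307 counts and an implied length of 148 bases in replicate 1, against 12604 bases of merged exons. Per length of merged exons it was the lowest of the 5, so its first place rests on the length used. *SNHG5* was the steadiest between libraries, and the ranges of *SNHG29* and *GAS5* overlapped. All 5 were higher in replicate 2 in FPKM. Small RNAs went the other way. *RN7SL2* and *RN7SL1*, copies of the signal recognition particle RNA, had 789 and 496 FPKM and 628 and 319 FPKM. Their implied lengths in replicate 1 were 33.3 and 32.8 bases against 300 and 299 annotated bases. The snRNA genes *RNVU1-18* and *RNU1-3* were each listed at 158 and 13.2 FPKM from an estimated 4.9 and 0.4 counts, so their FPKM rests on few reads.

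All 15 commonly used reference genes were expressed, and 10 passed 100 FPKM in both libraries. *GAPDH*, *RPLP0* and *ACTB* were followed by *PPIA*, a peptidyl-prolyl isomerase, with 3309 and 3656 FPKM and *TUBB*, a beta tubulin, with 1220.1 and 1211 FPKM. *RPLP0* and *GAPDH* were higher in replicate 2 in FPKM and in CPM, while *TUBB* differed by less than any of the other 4 in FPKM.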
